A study of Arabidopsis thaliana with 3 samples.

Results

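GID1A (AT3G05120), a gibberellin receptor, and WES1 (AT4G27260, also called GH3.5), an enzyme that conjugates auxin, were followed in the lateral nectaries of Arabidopsis thaliana with and without a working CWINV4. Each gene is read by 1 probe set, 259302_at for GID1A and 253908_at for WES1, so they are 2 of the 14338 probe sets of the table besides controls. They were taken by gene, as the probe sets whose single platform gene is GID1A or WES1. Lateral nectaries, the larger nectar glands of the flower, were dissected by hand at flower stages 14 to 15, when nectar is secreted, from 30 to 35 day old plants of ecotype Columbia-0, and about 250 to 300 glands made 1 RNA sample. The mutant cwinv4-1 was measured in 2 samples and the wild-type in 1, with a separate 1-colour Affymetrix array for each. CWINV4 encodes a cell wall invertase, which splits sucrose outside the cell, and the submitters call the mutant nectarless. Mutant replicate 1 is titled cwinv4-1a, although its genotype label is cwinv4-1 like that of replicate 2, and both were taken as replicates of 1 mutant line. The labels name no treatment, and both groups share the growth conditions.

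Gibberellin is perceived by soluble GID1 receptors. Once bound to the hormone, a GID1 protein binds the DELLA repressors of growth, which are then marked for degradation through the F-box protein SLY1. GID1A acts together with its close relatives GID1B and GID1C. WES1 belongs to the GH3 family of amido synthetases, which join hormones to amino acids, and it conjugates the auxin indole-3-acetic acid and also salicylic acid. Such conjugation lowers the pool of free auxin, and several GH3 genes are induced by auxin. In Arabidopsis flowers the auxin transporter PIN6 has been linked to nectar secretion.

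GID1A had a signal intensity of 1089 in wild-type, of 676.2 in cwinv4-1 replicate 1 and of 383.1 in cwinv4-1 replicate 2. Both mutant arrays lay below the wild-type array, and replicate 2 lay lowest. The mutant signals were 62.1% and 35.2% of the wild-type signal, 1.61-fold lower in replicate 1 and 2.84-fold lower in replicate 2. Counted from the brightest probe set, GID1A stood at rank 3466 of the 12455 probe sets with a signal in wild-type, at 5117 of 12441 in replicate 1 and at 7117 of 11365 in replicate 2. It thus passed from 2.14 times the array's median signal in wild-type to 1.35 times in replicate 1 and 0.697 times in replicate 2. Even there it was 1.44 times the 25th percentile of its array, so it was dim but not among the dimmest signals.

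WES1 was bright on every array. Its signal was 6919 in wild-type, 5878 in cwinv4-1 replicate 1 and 3250 in replicate 2. The order of the arrays was the same as for GID1A, but replicate 1 lay close to wild-type, at 85.0% of its signal, while replicate 2 was at 47.0%. WES1 stood at rank 340 in wild-type, 450 in replicate 1 and 988 in replicate 2, within the brightest 2.73%, 3.62% and 8.69% of the probe sets with a signal. Since the brightness of a probe set depends on its probes, these ranks compare a gene with itself across arrays and do not order GID1A against WES1.

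**Figure D1:**
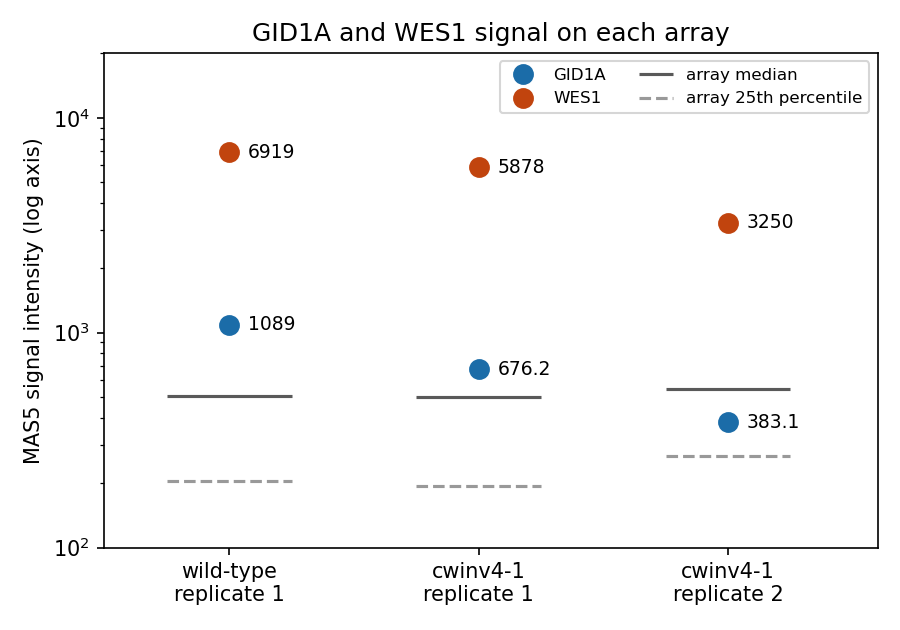
Signal intensity (MAS5, log axis) of GID1A and WES1 on each of the 3 arrays, 1 point per array, with the median (solid line) and the 25th percentile (dashed line) of all probe sets with a signal on that array. GID1A passes from above the median in wild-type (1089) and replicate 1 (676.2) to below it in replicate 2 (383.1), and WES1 stays far above the median throughout.

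The comparison of cwinv4-1 with wild-type asks which transcripts differ between glands of the nectarless mutant and those of wild-type. Loss of CWINV4 and loss of nectar go together here and cannot be told apart. For GID1A the log2 ratio over wild-type was -0.69 in replicate 1 and -1.51 in replicate 2, a mean of -1.10 ± 0.58 (SD, n = 2 mutant arrays), or 2.14-fold lower. In limma's moderated fit over 7750 probe sets the SE was 0.43 and the 95% interval ran from -2.01 to -0.19, that is from 4.02-fold to 1.14-fold lower. GID1A did not pass, with an unadjusted limma p of 0.0208 and an adjusted p = 0.535. For WES1 the log2 ratio was -0.24 in replicate 1 and -1.09 in replicate 2, a mean of -0.66 ± 0.60 (SD, n = 2 mutant arrays), or 1.58-fold lower. Its 95% interval from limma, -1.60 to 0.27, held 0 and reached from 3.03-fold lower to 1.21-fold higher. WES1 did not pass either, with an SE of 0.44, an unadjusted limma p of 0.153 and an adjusted p = 1.00. Missing the threshold does not show that either transcript was at its wild-type level.

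None of the 2 genes was thus called by limma at an adjusted p of 0.05, and 1 of the 2 had an unadjusted p under 0.05. Of all tested probe sets 0.426% were called and 6.49% had an unadjusted p under 0.05. On each mutant array both genes read lower than in wild-type, as did 37.2% of all tested probe sets, so this order alone sets neither gene apart. The smallest absolute log2 fold change among the called probe sets was 1.89, more than GID1A showed. The lone wild-type array carries no spread of its own and is assumed to vary like the mutant arrays. An exact permutation test of 2 arrays against 1 cannot give a p below 0.333, so none was used.

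The sizes were less common than the order. A log2 ratio as low as that of GID1A was seen in 3.39% of tested probe sets in replicate 1 and in 1.87% in replicate 2, and 75 probe sets, 0.968%, were as low in both. For WES1 the shares were 22.6% in replicate 1 and 5.07% in replicate 2, and 266 probe sets, 3.43%, were as low in both. Both ratios of a gene share the wild-type array, so a high wild-type value lowers them together.

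**Figure D2:**
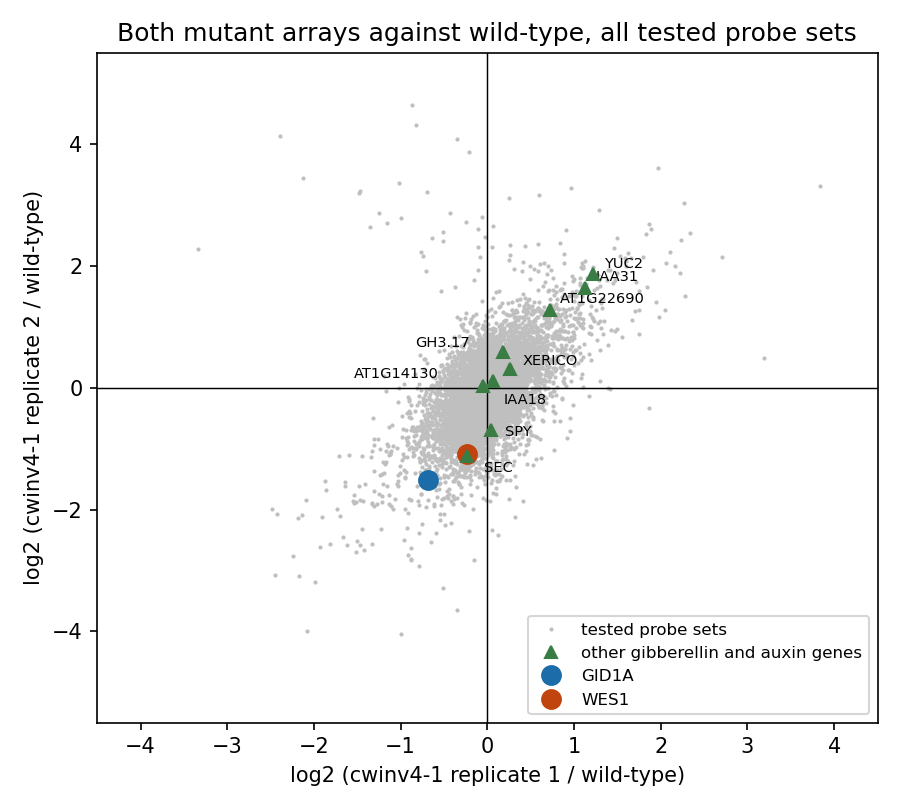
Log2 ratio over wild-type of cwinv4-1 replicate 1 (horizontal) and replicate 2 (vertical) for the 7750 tested probe sets (grey), with GID1A, WES1 and the other tested gibberellin and auxin genes marked. GID1A and WES1 lie in the lower left, with SEC drawn over WES1, and YUC2, IAA31 and AT1G22690 lie in the upper right.

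The step between the mutant arrays was nearly the same for both genes. The log2 ratio of replicate 2 over replicate 1 was -0.82 for GID1A and -0.85 for WES1, against a median of -0.08 and an SD of 0.56 over all tested probe sets. A difference at least that far down was seen in 6.61% and 5.92% of them. The distance between the genes therefore hardly moved. Relative to WES1, the log2 ratio of GID1A over wild-type was -0.45 for replicate 1 and -0.42 for replicate 2, a mean of -0.43 ± 0.02 (SD, n = 2 mutant arrays). A common scaling of an array cancels in this value, but the wild-type array behind it is single and the difference between the genes was not tested.

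Replicate 2 stood apart from the other arrays in more than these genes. It had no signal for 20.7% of probe sets, against 13.2% in replicate 1 and 13.1% in wild-type, and the SD of the log2 ratio over wild-type was 0.68 in replicate 2 and 0.41 in replicate 1 over the tested probe sets. The ratio of 3′ to 5′ signal, a measure of how complete the amplified RNA is, was higher in replicate 2 than on both other arrays in 5 of 6 control pairs. For 1 GAPDH pair it was 11.17 in replicate 2, 2.866 in replicate 1 and 4.815 in wild-type. The exception was 1 Actin pair, high on every array, at 25.78 in replicate 2, 32.18 in replicate 1 and 25.81 in wild-type. The pairs read the same transcripts (Actin, GAPDH and Ubq) more than once, so they are not separate readings. The 18 bacterial and phage hybridization controls were also uneven, with a median log2 ratio over wild-type of -0.45 in replicate 1 and 0.74 in replicate 2. If the arrays are set on these controls, WES1 in replicate 1 turns to 0.21 and GID1A to -0.24, against a median of 0.44 over all tested probe sets, and in replicate 2 they stand at -1.83 and -2.24, against -0.82. The part of these differences in the GID1A and WES1 values was not tested.

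Without replicate 2 the log2 ratio was -0.69 for GID1A and -0.24 for WES1, and without replicate 1 it was -1.51 and -1.09. Each of these rests on 1 array against 1 and has no test.

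Of genes marking tissues, SWEET9, the sucrose exporter of the nectary, was the only one of 6 nectary markers with a named probe set here, and it was bright on all arrays (19700 in wild-type, 16300 and 38100 in the mutant). Markers of pollen, carpel and green tissue had named probe sets for 5 of 12 loci, all with a signal on all 3 arrays and none at 0. Their summed signal was 21516.6 in wild-type, 19190.9 in replicate 1 and 16218.9 in replicate 2, an order that GID1A and WES1 share. Most of this sum came from the 2 green tissue markers, with 19307, 17240 and 15065 in the same order. All 5 read lower than wild-type on each mutant array, as did 37.2% of all tested probe sets. None of the 5 passed limma's test, against 0.426% called over all tested probe sets. None had an unadjusted p under 0.05 either, against 6.49% of all tested probe sets. SPT, a regulator of carpel growth, was at log2 ratios of -0.19 and -1.17 in replicates 1 and 2 and the pollen marker AT3G07820 at -0.21 and -2.36, with a replicate 2 signal of 128.2 that lay below the 25th percentile of its array. The other measured pollen marker, AT5G45880, was at -0.13 and -0.09. Of the green tissue markers, RCA was at -0.15 and -0.18 and LHCB4.1 at -0.18 and -0.64. Their part in the GID1A and WES1 values was not tested, and in a bulk sample fewer cells of a type and less RNA per cell cannot be told apart.

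The gibberellin pathway was followed in 47 loci, 9 of them with a named probe set and 5 tested. None of the 5 passed limma's test in either direction, against 0.426% called over all tested probe sets. An unadjusted p under 0.05 was seen for 2 (GID1A itself and AT1G22690), against 6.49% of all tested probe sets. The median log2 fold change of the 5, with GID1A (-1.10) counted among them, was -0.33, against -0.05 over all tested probe sets. The rest lay on both sides of 0, with SEC at -0.67, SPY at -0.33, XERICO at 0.29 and AT1G22690 at 1.00. Among the receptors, GID1C gave a signal of 79.5 on the wild-type array and none on either mutant array, and GID1B has no named probe set here. The wild-type signal of GID1C lay at 0.390 of the 25th percentile of its array. Among named probe sets, GID1A was thus the only GID1 receptor read above that percentile. No gene name was given for 5966 of the 14338 probe sets, and whether any of these reads GID1B is not known.

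Downstream of the receptor the readings were few. SLY1, the F-box protein of DELLA degradation, had signals of 423.8 in wild-type and 367.2 in replicate 1, and none in replicate 2. Its homolog SLY2 had a signal on replicate 2 alone, of 171.5. SEC, which attaches sugar groups to DELLA proteins, had signals of 2400 in wild-type, 2044 in replicate 1 and 1108 in replicate 2. It was lower in both mutant arrays, by log2 ratios of -0.23 and -1.12 (mean -0.67, limma adjusted p = 0.982). SPY, which also modifies DELLA proteins, was at signals of 452.2, 464.2 and 280.7 in the same order, so replicate 1 lay slightly above wild-type and replicate 2 below (mean log2 fold change -0.33, limma adjusted p = 1.00).

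Of 12 gibberellin-responsive loci, 3 had a named probe set and 2 were tested. None of the 2 passed, against 0.426% called over all tested probe sets. AT1G22690 had signals of 387.1 in wild-type, 636.5 in replicate 1 and 941.5 in replicate 2, a mean log2 fold change of 1.00 (SE 0.41, unadjusted p = 0.0270, limma adjusted p = 0.612). XERICO, a RING-type zinc finger gene, was at 4043, 4833 and 5025, a mean log2 fold change of 0.29 (limma adjusted p = 1.00). Both were above wild-type in both mutant arrays, as were 30.0% of all tested probe sets. The list does not separate genes raised by gibberellin from genes lowered by it, so these values give no direction of a gibberellin response. EXPA8, an expansin, had no signal on any array. AT1G22690 here, and AT5G13380 and AT1G14130 further on, carry only a locus code in the tables used and stand in their lists by locus.

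The auxin pathway was followed in 116 loci, of which 10 had a named probe set and 6 were tested. None of the 6 passed limma's test in either direction, and 2 had an unadjusted p under 0.05 (YUC2 and IAA31). The median log2 fold change of the 6, with WES1 (-0.66) counted among them, was 0.24. Over all tested probe sets 0.426% were called, 6.49% had an unadjusted p under 0.05 and the median was -0.05. Of the 6, 4 were above wild-type in both mutant arrays, against 30.0% of all tested probe sets. WES1 alone read lower on each mutant array, as 37.2% of all tested probe sets did. YUC2, a flavin monooxygenase of auxin synthesis, had signals of 182.8 in wild-type, 427 in replicate 1 and 665.7 in replicate 2. Both mutant arrays were higher, by log2 ratios of 1.22 and 1.86 (mean 1.54, SE 0.43, 95% interval 0.64 to 2.45), but the wild-type signal lay below the 25th percentile of its array and YUC2 did not pass (unadjusted p = 0.00220, limma adjusted p = 0.179).

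Within the GH3 family, 4 of 19 loci had a named probe set, WES1 among them. GH3.17, another auxin-conjugating member, had signals of 1329 in wild-type, 1503 in replicate 1 and 2009 in replicate 2 (mean log2 fold change 0.39, SE 0.38, limma adjusted p = 1.00). Its order of arrays was the reverse of that of WES1, with a 95% interval of -0.42 to 1.19 that overlaps that of WES1, and the difference between these genes was not tested. GH3.9 was dim everywhere, at 33.9, 51.9 and 87.4, and AT5G13380 had a signal of 67.2 on replicate 1 alone, so neither was tested. UGT74D1, a glucosyltransferase that can take auxin as a substrate, had signals of 75.6 in wild-type, 285.4 in replicate 1 and 230.1 in replicate 2, but was too dim on average to be tested, and its wild-type and replicate 2 signals lay below the 25th percentile of their arrays. AT1G14130 was at 541.8, 521.9 and 553.6, within a log2 ratio of -0.05 to 0.03 of wild-type.

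Of the Aux/IAA repressors of auxin response, 3 of 29 loci had a named probe set. IAA31 had signals of 742.2 in wild-type, 1622 in replicate 1 and 2321 in replicate 2. Both mutant arrays were higher, by log2 ratios of 1.13 and 1.64 (mean 1.39, SE 0.39, 95% interval 0.57 to 2.21), and IAA31 did not pass (unadjusted p = 0.00247, limma adjusted p = 0.191). IAA18 differed little, at 1521, 1592 and 1646 in the same order, and its mean log2 fold change of 0.09 turned to -0.05 when arrays were set on the hybridization controls. IAA29 had a signal of 117.3 on replicate 2 alone. No named probe set was present for the lists of gibberellin synthesis, auxin transport, auxin perception, auxin response factors and receptors of other hormones, which are not analysed here.

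**Figure D3:**
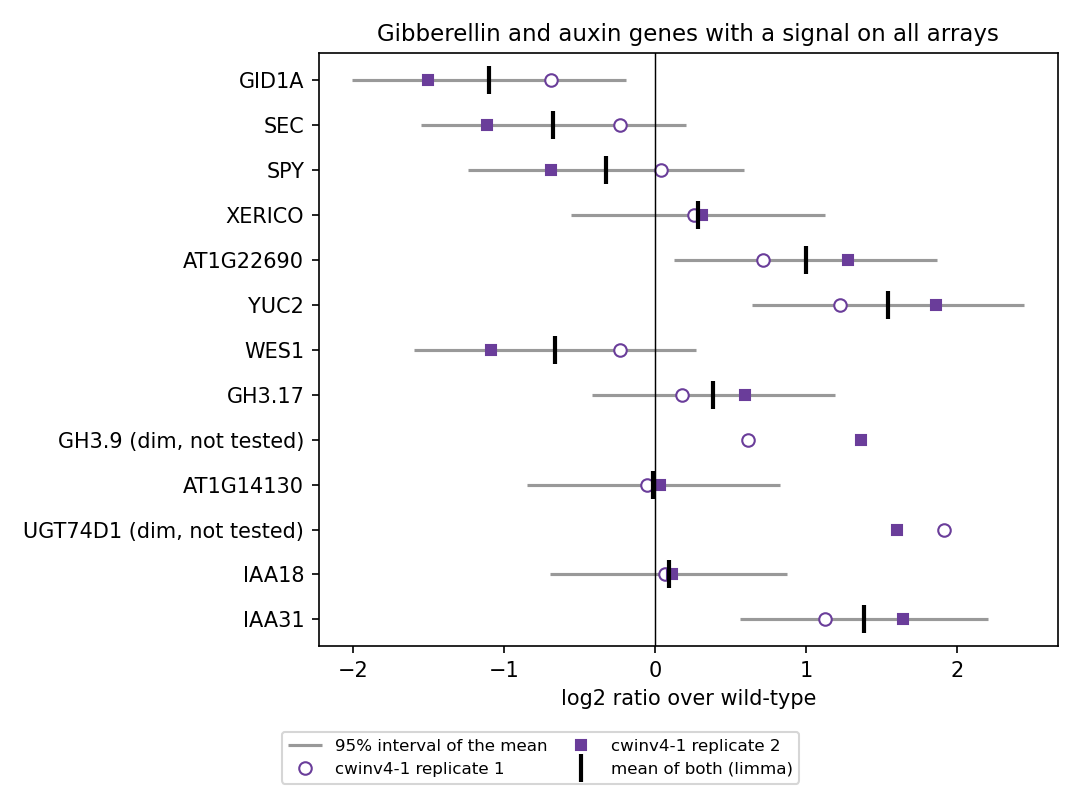
Log2 ratio over wild-type of each cwinv4-1 array (open circle, replicate 1; square, replicate 2) for the gibberellin and auxin genes with a signal on all 3 arrays, with limma's mean (black tick) and its 95% interval (grey bar) for those tested. GID1A, SEC and WES1 lie below 0 on both mutant arrays, and of these only the interval of GID1A leaves out 0. AT1G22690, YUC2 and IAA31 lie above 0 on both, with intervals that leave out 0. XERICO, IAA18, GH3.17, GH3.9 and UGT74D1 also lie above 0 on both. None of those tested passed after adjustment.

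The genes most like GID1A and WES1 were taken as the 5 named probe sets with the smallest Euclidean distance between their pair of log2 ratios and that of the gene, out of 4018 compared over the 2 mutant arrays. For GID1A these were AT1G79210, AT4G14270, AT4G16146, AT3G27870 and RD2, at distances of 0.048 to 0.157. AT1G79210, the nearest, had signals of 2293 in wild-type, 1421 in replicate 1 and 833.8 in replicate 2, with log2 ratios of -0.69 and -1.46. For WES1 the nearest was SEC, at a distance of 0.025, followed by AT1G31730, AT1G19860, AT1G16560 and AT1G07040, at up to 0.059. The gibberellin gene SEC thus lay nearer to WES1 than to GID1A. The pattern of WES1 was the more common one, with 120 named probe sets within a distance of 0.25, against 12 for GID1A. None of the 10 named here passed limma's test (lowest adjusted p = 0.399, for RD2), against 0.426% called over all tested probe sets. Their choice by ratio kept their mean log2 fold changes near those of GID1A and WES1, short of the smallest called absolute value of 1.89.

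**Figure D4:**
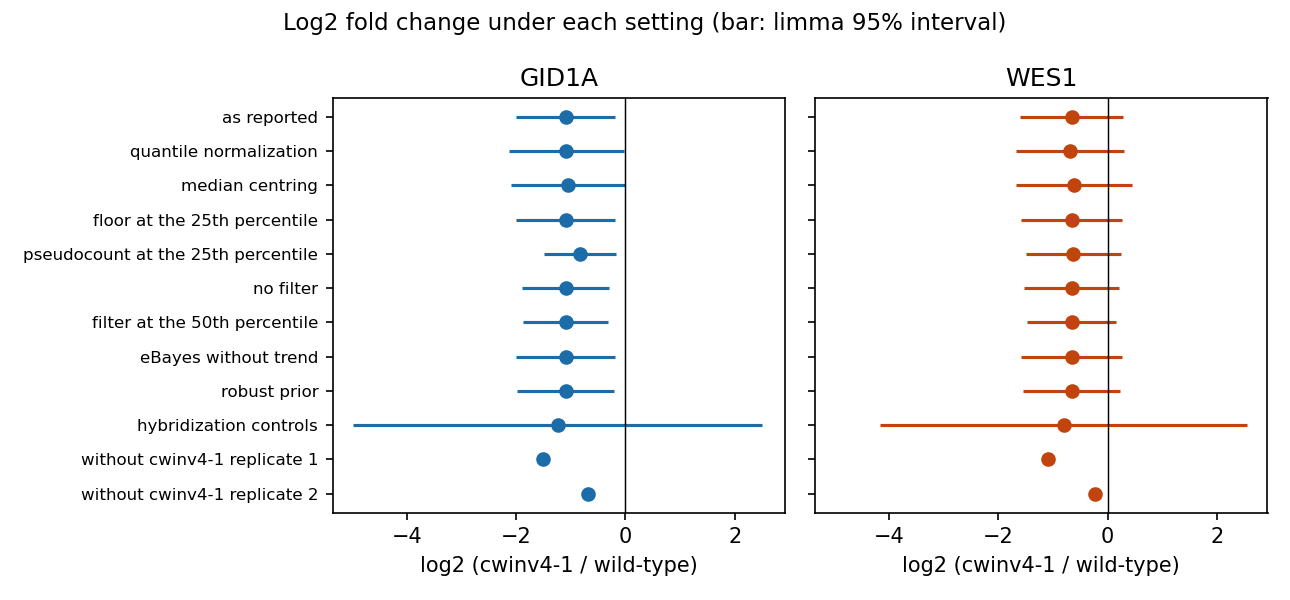
Log2 fold change of GID1A (left) and WES1 (right), cwinv4-1 over wild-type, as reported and under each other setting; bars are limma 95% intervals, and the settings without 1 mutant array are single ratios with no interval. The points of both genes, which are means of both mutant arrays unless 1 is left out, stay below 0 in every setting shown, between -1.51 and -0.69 for GID1A and between -1.09 and -0.24 for WES1.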

How the data were processed

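The authors deposited linear signal intensities per probe set, made with MAS5 per the submitters' processing notes; version and target level are not given in the sources used here. Per the series' design text, other wild-type nectary arrays entered the normalization, in a way not given. Cells without a value were kept as missing. Per the labels' protocols, biotin-labelled RNA was made from 500 ng of total RNA in a single amplification. Of the probe sets, 8037 had 1 gene in GEO's platform annotation, 335 several and 5966 none; 8000 of the 8037 matched a locus in RefSeq's TAIR10.1 table. No build is stated, so no coordinates are given.

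Deposited intensities were taken as log2. All 3 arrays gave a signal for 10334 probe sets, and those with a mean log2 signal at or above the 25th percentile were tested with limma 3.58.1 in R 4.3.3 (lmFit, eBayes with trend, two-sided, 1 residual and 15.4 prior degrees of freedom, Benjamini-Hochberg over all 7750, threshold 0.05). The script was tested on simulated data. The number of arrays limits the precision. The design text calls the samples biological replicates. The genes, lists, markers and naming rule (both genes, the 5 nearest to each, all measured list members) were chosen with earlier results of these data known.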

Additional observations from a re-analysis of the deposited data

How the results depend on the processing

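Neither gene passed limma's test, and the mean log2 fold change of both stayed below 0, in all 8 other settings of the scaling, filter and variance prior and in 1 more chosen after seeing the data. The log2 fold change ran from -1.24 to -0.83 for GID1A (adjusted p 0.162 to 1.00) and from -0.81 to -0.62 for WES1 (adjusted p 0.839 to 1.00). Without 1 mutant replicate it ran from -1.51 to -0.69 for GID1A and from -1.09 to -0.24 for WES1. The added setting puts each array on its hybridization controls, which shifts every mean log2 fold change by -0.14 and puts WES1 in replicate 1 above wild-type, at 0.21. The 95% interval of GID1A left out 0 in all settings but that one, where it ran from -4.98 to 2.50. The number of calls over all probe sets was less stable. Against 33 it was 0 after quantile normalization, 0 after median centring and 0 on the hybridization controls (397, 399 and 0 at an unadjusted p under 0.05), 126 without a filter and 90 with a filter at the 50th percentile. The prior degrees of freedom were 15.4 as reported and 5.03, 5.24, infinite, 138 and 157 in these settings, in the same order. The cause of the differences was not tested. A pseudocount of 222, a floor at that signal, no trend and a robust prior gave 48, 38, 28 and 28. The prior degrees of freedom were 20.2 with the pseudocount, 17.5 with the floor and 14.6 without trend. Calls without 1 mutant array were not run, because no residual degree of freedom is left. No paired analysis was possible because the groups share only replicate number 1.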
